A study of Mus musculus with 8 samples.

Results

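The genes described here are those with which a photoreceptor switches its light response off and restores its dark state. There are 10 of them, named by function, among 17500 genes in the deposited table: *Guca1a* and *Guca1b*, *Gucy2e* and *Gucy2f*, *Rcvrn*, *Grk1*, *Rgs9*, *Rgs9bp*, *Gnb5* and *Slc24a1*. They were measured by poly(A) RNA-seq in whole retinas, with 1 library for each of 8 mice. The *Rbfox2*-/- group was M893, M901, M902, M909 and the control group M833, M894, M896, M898, and values are given in that order of mice throughout. *Rbfox2* encodes an RNA-binding protein that regulates splicing, and the comparison asks how the retinal transcriptome differs when it is lost in the adult. By immunostaining, the paper found the protein only in ganglion, amacrine and horizontal cells, and it does not report it in photoreceptors. The *Rbfox2*-/- mice, labelled as a *Rbfox2* knockdown (KD), carried *Rbfox2* fl/fl and a tamoxifen-inducible Cre whose activity is not limited to 1 retinal cell type. The controls were age-matched heterozygous *Rbfox2* fl/+ mice according to the methods, which do not state whether those sequenced carried Cre or received tamoxifen. All mice were on a C57BL/6J background and 6 months old. The labels give a 4-month tamoxifen treatment for every mouse, controls included, whereas the methods give 4 months as the time that had passed since induction in the *Rbfox2*-/- mice.

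Light activates the receptors of the outer segment, which activate transducin, and transducin in turn activates the phosphodiesterase that breaks down cyclic GMP and closes the cyclic nucleotide-gated channels of the outer segment. Recovery undoes each step. The kinase *Grk1* phosphorylates the active receptor, and recoverin (*Rcvrn*) holds the kinase back while calcium is high. A complex of *Rgs9*, the long G protein beta subunit *Gnb5* and the membrane anchor *Rgs9bp* speeds the hydrolysis of GTP by transducin. The exchanger *Slc24a1* removes calcium from the rod outer segment, and as calcium falls the activating proteins encoded by *Guca1a* and *Guca1b* stimulate the membrane guanylate cyclases *Gucy2e* and *Gucy2f*, which restore cyclic GMP.

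In the mouse genome (GRCm38, GENCODE), *Guca1a* lies on chromosome 17 at 47394558 to 47400584 on the reverse strand and *Guca1b* on the same chromosome at 47385393 to 47392967 on the forward strand, so that their 3′ ends face each other across 1590 bases. The 3 genes on chromosome 11 are *Gucy2e* (69218117 to 69237036, reverse), *Rcvrn* (67695326 to 67703333, forward) and *Rgs9* (109225355 to 109298129, reverse). *Gucy2f* is X-linked (142081160 to 142196931, reverse), *Grk1* lies on chromosome 8 (13405081 to 13421951, forward) and *Rgs9bp* on chromosome 7 (35578993 to 35585582, reverse). *Gnb5* (75306288 to 75345876, forward) and *Slc24a1* (64922861 to 64951607, reverse) are on chromosome 9. Exons of *Gnb5* overlap those of *Gm19531* on the opposite strand over 248 bases, or 7.96% of its exonic sequence, and because the strand setting of the counting is not given, reads from both cannot be told apart there. The other 9 genes share no exonic base with another gene.

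The promoters of 4 genes are shown because, as described below, the ratios of *Rgs9* and *Gnb5* to *Gucy2e* and *Gucy2f* did not overlap between the groups. Each covers 250 bases before to 50 bases after the RefSeq start (GRCm38.p6), 5′ to 3′ on the strand of the gene, and capitals mark TAATCC or its reverse complement GGATTA, the core bound by the photoreceptor factors Crx and Otx2.
Gucy2e promoter (chr11:69236973-69237272, reverse strand): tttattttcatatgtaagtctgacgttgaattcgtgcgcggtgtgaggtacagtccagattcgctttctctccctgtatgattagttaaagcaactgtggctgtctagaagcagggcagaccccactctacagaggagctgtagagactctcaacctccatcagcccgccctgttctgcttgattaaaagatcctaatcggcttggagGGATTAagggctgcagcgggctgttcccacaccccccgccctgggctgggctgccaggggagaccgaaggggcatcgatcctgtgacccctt
Gucy2f promoter (chrX:142196887-142197186, reverse strand): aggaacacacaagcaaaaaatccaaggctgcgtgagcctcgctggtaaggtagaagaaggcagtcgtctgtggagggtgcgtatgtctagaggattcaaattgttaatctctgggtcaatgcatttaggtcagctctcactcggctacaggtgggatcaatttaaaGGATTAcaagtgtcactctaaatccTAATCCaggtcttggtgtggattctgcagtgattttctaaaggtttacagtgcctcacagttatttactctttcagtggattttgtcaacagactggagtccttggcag
Rgs9 promoter (chr11:109298132-109298431, reverse strand): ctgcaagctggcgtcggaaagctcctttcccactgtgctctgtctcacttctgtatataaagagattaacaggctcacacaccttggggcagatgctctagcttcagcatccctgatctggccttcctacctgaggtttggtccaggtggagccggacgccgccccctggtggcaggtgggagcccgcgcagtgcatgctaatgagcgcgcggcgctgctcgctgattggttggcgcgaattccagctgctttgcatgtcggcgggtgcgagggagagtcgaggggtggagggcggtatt
Gnb5 promoter (chr9:75306038-75306337, forward strand): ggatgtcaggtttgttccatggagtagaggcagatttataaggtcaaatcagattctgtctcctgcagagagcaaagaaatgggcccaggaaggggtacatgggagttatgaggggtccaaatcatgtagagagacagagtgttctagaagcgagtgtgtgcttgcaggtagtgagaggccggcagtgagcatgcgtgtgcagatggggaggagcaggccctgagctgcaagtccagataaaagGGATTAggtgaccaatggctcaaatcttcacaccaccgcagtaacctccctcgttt
The letters occur once in *Gucy2e* and *Gnb5*, at 2 places in *Gucy2f*, and not in this window of *Rgs9*. Of the 7 genes with a promoter in the table, 4 held them (*Guca1a* being the fourth), against 7.06% of 32851 windows of the same length. Among genes of rod activation 3 of 5 matched promoters held them, and among genes of cone activation 1 of 5. *Grk1* and *Slc24a1* had none, and *Guca1b*, *Rcvrn* and *Rgs9bp* were not matched.

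Rbfox proteins bind TGCATG, written with U for T in RNA, and these letters were searched in 1 coding transcript per gene, the one paired with the RefSeq entry of the deposited table, without its introns. They are shown here for the 5 genes that held them, with 12 bases on each side and the letters in capitals.
Gnb5 first coding site: agcgggcaaagcTGCATGacgtggagctac
Gnb5 second coding site: aacaaagtcctgTGCATGgattggtgcaaa
Gucy2f coding site: ggtgctcctttcTGCATGatggatctgcct
Gucy2e 3′ UTR site: acaggtcaagtcTGCATGttaaggggaccc
Rgs9bp 3′ UTR site: ccaaagttgggtTGCATGtttgtttttgta
Slc24a1 3′ UTR site: aaatctggcggaTGCATGaagagatctagg
*Gnb5* carried 2 such sites in its coding sequence, *Gucy2f* 1 in its coding sequence, and *Gucy2e*, *Rgs9bp* and *Slc24a1* 1 each in the 3′ UTR, at 1918, 1129 and 886 bases after the stop codon. *Guca1a*, *Guca1b*, *Rcvrn*, *Grk1* and *Rgs9* had none in these transcripts. Other transcripts of the 10 genes were not searched. For *Gnb5* the coding part of the transcript searched ran from base 137 to 1198. Whether it encodes the long subunit was not checked. For *Rgs9* the transcript searched had 2434 bases, and its longest coding transcript has 3464. Whether the *Rgs9* transcript searched is the form that photoreceptors use was not tested, so the absence of a site covers that transcript only. The letters were present in 53.8% of 14925 transcripts and in the 3′ UTR of 32.1%, so that 5 of 10 genes with a site, and 3 of 10 in the 3′ UTR, lay near the share of all genes. Per kilobase, *Gnb5* held 0.95 sites, the other 4 holders 0.12 to 0.192, and all transcripts together 0.284. Binding of Rbfox2 at these sites was not tested.

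The targeted gene followed the labels. *Rbfox2* was at 143.8, 149.8, 156.8 and 148.1 CPM (counts scaled to the normalized library size) in the 4 controls, and at 53.9, 58.9, 53.6 and 59.4 CPM in the 4 *Rbfox2*-/- mice. The level in *Rbfox2*-/- retinas was 0.377 of that in controls (log2 fold change -1.41, SE 0.046, adjusted p = 5.51e-07, edgeR quasi-likelihood test with Benjamini-Hochberg adjustment over all genes tested). These counts include the exons outside the floxed part of the gene. Between 160630226 and 211283591 counts were assigned to genes per library, and a floor of 3 counts corresponds to 0.0144 to 0.0189 CPM, which covers counting error only. The 10 genes took 1.29% to 1.43% of the counts of each library. Libraries M901 and M902 stood apart on the first principal component and held 277506 and 275967 counts of *Xist*, the RNA of the inactive X chromosome, against 312 to 426 in the other 6 mice. High *Xist* is a mark of female tissue. Both of these mice were *Rbfox2*-/- and no control held such counts, so sex and genotype cannot be fully told apart. Values that move by over 1.5 times without both libraries are given with and without them.

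Per transcript length, the recovery genes covered a wide range, and the soluble calcium sensors and the GTPase activator stood at the top. In the deposited FPKM (fragments scaled to transcript length and library size), *Rgs9* was at 1077 ± 44.9 and *Guca1a* at 1061 ± 79.7 in the controls (mean ± SD, n = 4), and the ranges of these neighbours overlapped. *Rcvrn* followed at 913 ± 43.3, *Guca1b* at 730.4 ± 15.2 and *Slc24a1* at 399 ± 14.5, each without overlap with the one above. *Gnb5* (354 ± 32.1) and *Grk1* (317 ± 24.0) overlapped. Lowest were *Rgs9bp* at 188 ± 2.62, *Gucy2e* at 114 ± 4.84 and *Gucy2f* at 40.4 ± 3.52 FPKM, again each apart from the next. Among all genes, *Rgs9*, *Guca1a* and *Rcvrn* ranked 16, 17 and 18 in the controls, whereas *Gucy2f* ranked 1697.

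**Figure D1:**
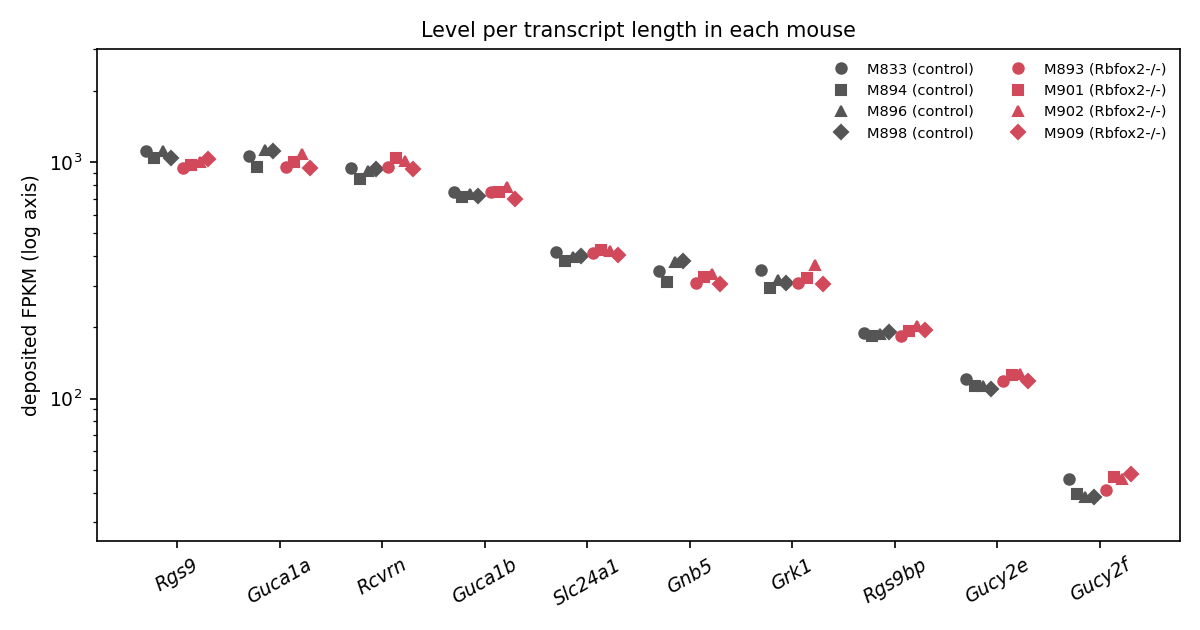
Deposited FPKM (log axis) of the 10 recovery genes, 1 point per mouse, controls in grey and *Rbfox2*-/- mice in red, ordered by the control mean. The level falls from about that of *Rgs9* (1077 FPKM in controls) to that of *Gucy2f* (40.4), and the groups lie close together for every gene.

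The order at the top depends on the length used. The deposited values imply a length of 2486 bases for *Rgs9*. With all exonic bases of GENCODE, *Rgs9* came 4th and *Guca1a* 1st, and with the longest coding transcript *Rgs9* came 3rd. In *Rbfox2*-/- retinas *Rgs9* (987 FPKM), *Rcvrn* (987 FPKM) and *Guca1a* (992.5 FPKM) lay together, with ranges of 940.4 to 1035, 937.5 to 1037 and 942 to 1078. Within the cyclase and sensor pairs, *Gucy2e* was at 2.83 ± 0.131 times the FPKM of *Gucy2f* in controls and at 2.72 ± 0.176 times in *Rbfox2*-/- mice, and *Guca1a* at 1.45 ± 0.101 and 1.33 ± 0.041 times that of *Guca1b*. Both pairs of ranges overlapped.

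The recovery genes differed little between the groups. All 10 passed the filter on low counts, and 0 had an adjusted p under 0.05 (edgeR quasi-likelihood test), where 11 of 16797 genes (0.0655%) did. At an unadjusted p under 0.05 there were 3 of 10, *Gucy2f*, *Gucy2e* and *Rcvrn*, all higher in *Rbfox2*-/- retinas, against 13.3% of all genes. Without M901 and M902 none of these 3 remained at that threshold, and the 1 gene that reached it was *Gnb5*, which was lower. DESeq2 gave 5 at that threshold, these 3 and, lower, *Rgs9* and *Gnb5*, and 0 after adjustment. No gene of the 10 had groups that did not overlap, against 7.03% of all genes. The fitted difference was above 0 for 7 of 10, against 50.7% of all genes, with a median log2 fold change of 0.058 (all genes 0.0016), which was 0.0042 without M901 and M902. Differences ran from -0.14 (*Gnb5*) to 0.18 (*Gucy2f*) on the log2 scale, with SE of 0.044 to 0.079. The 95% intervals of all 10 lay between 0.82-fold and 1.27-fold, so that larger differences were outside the intervals for each of them.

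**Figure D2:**
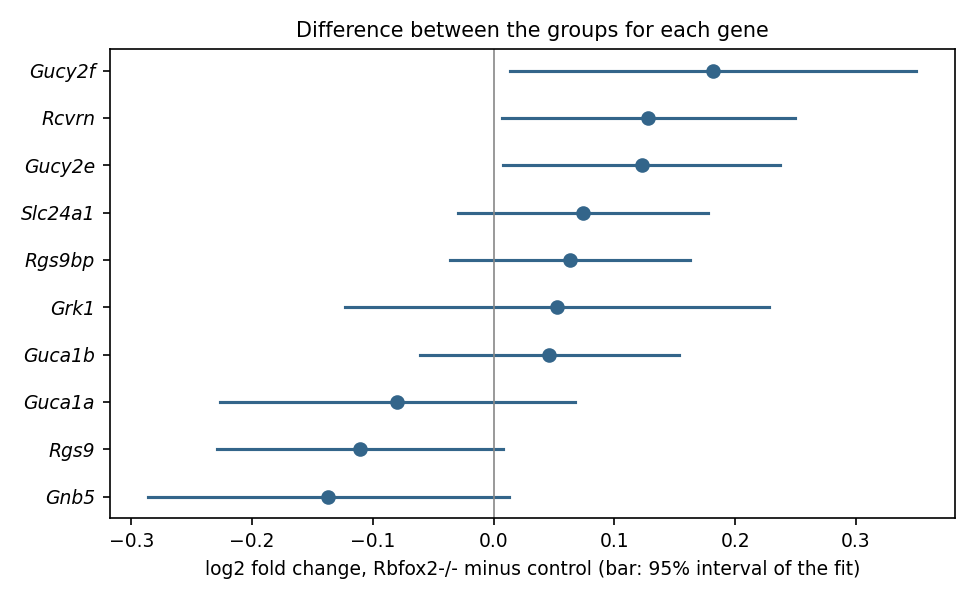
Log2 fold change of each recovery gene (*Rbfox2*-/- minus control, n = 4 mice each) with the 95% interval of the edgeR fit. *Gucy2f*, *Rcvrn* and *Gucy2e* lie to the right with intervals just above 0, and *Gnb5*, *Rgs9* and *Guca1a* lie to the left with intervals that cross 0.

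The 2 membrane guanylate cyclases, which make cyclic GMP in the outer segment, were both higher on average. *Gucy2e* was at 1022, 926, 933 and 897 CPM in the controls, and at 983, 1058, 1076 and 997 CPM in the *Rbfox2*-/- mice. Only M901 and M902 were above every control, since the control M833 exceeded M893 and M909. The difference was 0.12 on the log2 scale (SE 0.052, adjusted p = 0.355), and 0.07 without M901 and M902. *Gucy2f* was at 463, 389, 378 and 377.5 CPM in the same controls and at 407, 472, 462 and 481 CPM in the *Rbfox2*-/- mice. The control M833 lay far above the other 3 controls and inside the range of the *Rbfox2*-/- mice. The difference was 0.18 (SE 0.076, adjusted p = 0.352), and 0.25 without M833 (adjusted p = 0.111). For this X-linked gene, M901, M902 and M909 were 0.24, 0.21 and 0.27 above the control mean on the log2 scale, and M893 was 0.03 above it, below the control M833 (0.21).

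The activating proteins of the cyclases went different ways and neither passed a threshold. *Guca1a* was at 939, 819, 973 and 955 CPM in the controls and at 826, 880.4, 953 and 828 CPM in the *Rbfox2*-/- mice. M894 was the lowest of all 8 libraries, and the fitted log2 fold change was -0.08 (SE 0.066, 95% interval -0.23 to 0.067, adjusted p = 0.632), and -0.16 without M901 and M902. *Guca1b*, its tail-to-tail neighbour, was at 1269, 1178, 1215 and 1184 CPM in the controls and at 1238, 1263, 1330.0 and 1172 CPM in the *Rbfox2*-/- mice. These mice included both the highest and the lowest library, and the log2 fold change of 0.05 (adjusted p = 0.72) became -0.010 without M901 and M902.

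Of the genes that quench the active receptor, recoverin was higher on average and its target kinase was not distinguishable. *Rcvrn* was at 1020.0, 892, 968 and 979 CPM in the controls and at 1009, 1115, 1091 and 1002 CPM in the *Rbfox2*-/- mice. All *Rbfox2*-/- mice exceeded 3 of the controls, but M893 and M909 lay below M833. The log2 fold change was 0.13 (SE 0.054, 95% interval 0.0070 to 0.25, adjusted p = 0.359), and 0.06 without M901 and M902. *Grk1* was at 2642, 2154, 2329 and 2257 CPM in the controls and at 2279, 2421, 2752 and 2281 CPM in the *Rbfox2*-/- mice, with 1 high library in each group. Its log2 fold change of 0.05 (SE 0.079, adjusted p = 0.815) was -0.012 without M902 and -0.043 without M901 and M902.

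**Figure D3:**
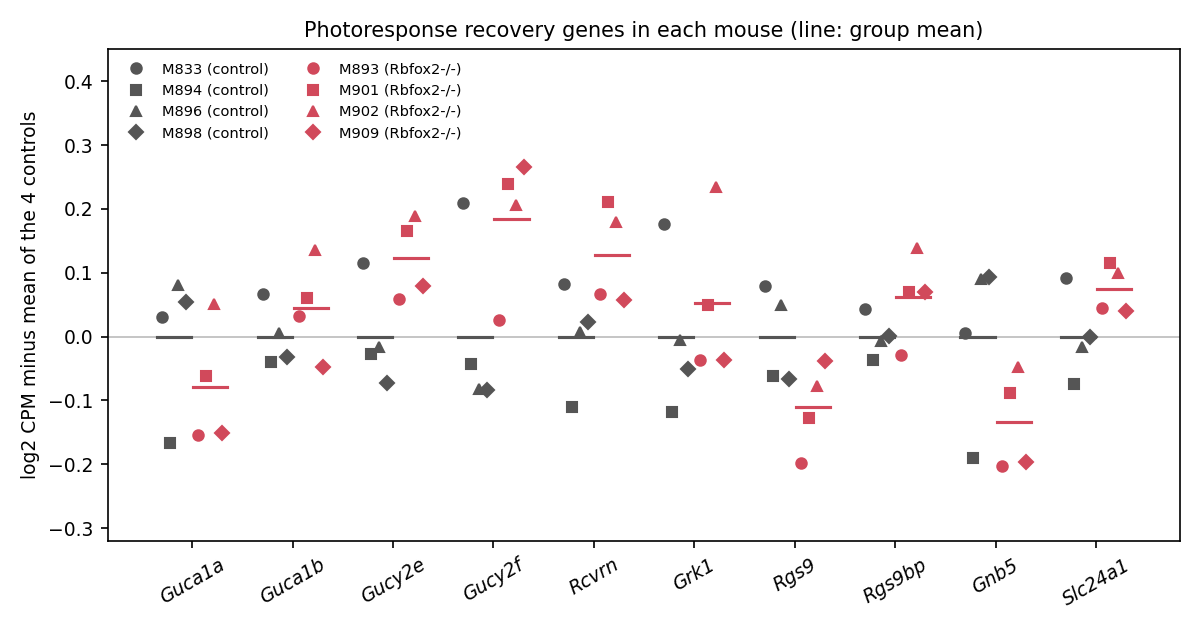
Log2 CPM of each recovery gene minus the mean of the 4 controls, 1 point per mouse, with a line at each group mean. The groups overlap for all 10 genes, M833 is above and M894 below the control mean for every gene, and the *Rbfox2*-/- mice are all above it for *Gucy2e*, *Gucy2f*, *Rcvrn* and *Slc24a1* and all below it for *Rgs9* and *Gnb5*.

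Within the complex that switches transducin off, the catalytic and the beta subunit were lower on average while the anchor was not. Counts are per gene, so the long form of *Gnb5* is not separated from its other transcripts, nor are the transcripts of *Rgs9*. *Rgs9* was at 2813, 2550.0, 2753 and 2540 CPM in the controls and at 2320.0, 2437, 2523 and 2591 CPM in the *Rbfox2*-/- mice, of which 3 lay below every control. Its log2 fold change was -0.11 (SE 0.053, 95% interval -0.23 to 0.0081, adjusted p = 0.403). *Gnb5* was at 793, 692, 841 and 842 CPM in the controls and at 686, 742, 763.5 and 689 CPM in the *Rbfox2*-/- mice, of which 2 lay below every control. Its log2 fold change was -0.14 (SE 0.067, 95% interval -0.29 to 0.012, adjusted p = 0.41), and -0.21 without M901 and M902 (adjusted p = 0.782). *Rgs9bp*, the anchor, was at 1269, 1201, 1226 and 1233 CPM in the controls and at 1208, 1293, 1356 and 1293 CPM in the *Rbfox2*-/- mice, 3 of them above every control, with a log2 fold change of 0.06 (SE 0.044, adjusted p = 0.572), or 0.02 without M901 and M902. None of these 3 differences passed either threshold in all 8 mice.

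The calcium exchanger of the rod outer segment, *Slc24a1*, was at 2200.0, 1962, 2042 and 2063 CPM in the controls and at 2130.0, 2237, 2213 and 2124 CPM in the *Rbfox2*-/- mice. The 2 highest libraries were M901 and M902, but M833 was above M893 and M909. The log2 fold change was 0.07 (SE 0.046, 95% interval -0.029 to 0.18, adjusted p = 0.524), and 0.04 without M901 and M902.

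Ratios between the recovery genes within a library, which do not depend on depth or on the normalization, separated the groups where single genes did not. Of the 45 ratios that the 10 genes form, 12 (26.7%) did not overlap between the groups. Of the 167590 ratios of 1 of these genes to a tested gene outside the 10, 7.23% did not overlap. Those outside genes were of any cell type and level, so this share is not a matched background for ratios among the 10. A background of outside genes matched in cell type or level was not tested. The 45 ratios share genes and are not independent. In 11 of the 12 the lower gene in *Rbfox2*-/- retinas was *Rgs9* (5 ratios) or *Gnb5* (6 ratios), and in the remaining one it was *Guca1a*, set against *Rcvrn*. *Rgs9* and *Gnb5* were each lower relative to the same 5 genes, *Gucy2e*, *Gucy2f*, *Rcvrn*, *Rgs9bp* and *Slc24a1*. In whole retina, the cell types that the RNA of each gene came from cannot be told. The median log2 fold change was -0.12 for bipolar markers and 0.08 for markers shared by photoreceptors. The part of such shifts in these ratios was not tested. A two-sided exact permutation test over 70 groupings gave p = 0.0286 for each of the 12, the smallest that 4 mice against 4 allow. Any ratio without overlap gives this p, so it adds nothing to the absence of overlap. Adjusted over the 45 ratios, it was 0.107. Leaving out mice cannot create an overlap, so it was fixed in advance that all 12 stayed apart without M901 and M902. There 18 of 45 did not overlap, fewer mice being less likely to overlap.

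The ratio of *Rgs9* to its anchor *Rgs9bp* was 2.22, 2.12, 2.25 and 2.06 in the controls, and 1.92, 1.89, 1.86 and 2.003 in the *Rbfox2*-/- mice. Every *Rbfox2*-/- mouse was below every control, with a mean log2 difference of -0.17 (pooled SD 0.052). Per length, the ratio was 5.73 ± 0.226 FPKM of *Rgs9* per FPKM of *Rgs9bp* in controls and 5.08 ± 0.165 in *Rbfox2*-/- retinas. The ratio of *Rgs9* to *Gucy2e* was 2.75 in M833 and M894, 2.95 in M896 and 2.83 in M898, against 2.36, 2.30, 2.35 and 2.60 in the *Rbfox2*-/- mice, a difference of -0.23 (pooled SD 0.065). That of *Gnb5* to *Rcvrn* was 0.777, 0.776, 0.869 and 0.86 in controls and 0.68, 0.666, 0.7 and 0.688 in *Rbfox2*-/- mice, a difference of -0.26 (pooled SD 0.067). For *Gnb5* to *Gucy2f* the difference was larger (-0.32) but so was the spread (pooled SD 0.162), and M833 (1.71) was close to M893 (1.69). *Gnb5* to *Rgs9*, 2 subunits of 1 complex, ran from 0.272 to 0.331 in controls and from 0.266 to 0.305 in *Rbfox2*-/- mice (log2 difference -0.02, exact permutation p = 0.743).

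**Figure D4:**
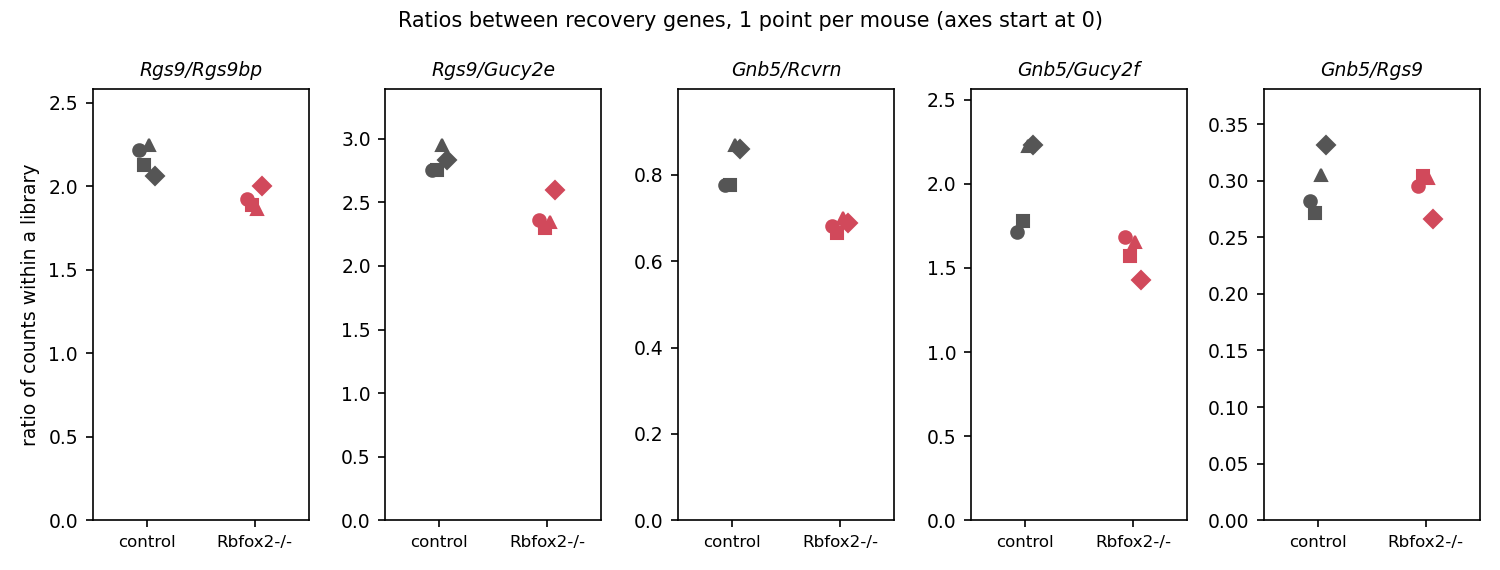
Ratios of counts between recovery genes within each library, 1 point per mouse, with every axis starting at 0 and no bars for error. The 4 *Rbfox2*-/- mice lie below the 4 controls for *Rgs9*/*Rgs9bp*, *Rgs9*/*Gucy2e*, *Gnb5*/*Rcvrn* and *Gnb5*/*Gucy2f*, and the groups overlap for *Gnb5*/*Rgs9*.

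The recovery genes were also set against the genes they act on, a choice of 5 ratios made after their values were seen, of which 3 are given here, without a test. *Rgs9* to *Gnat1*, the rod transducin alpha subunit, was 0.191, 0.186, 0.21 and 0.188 in the controls and 0.154, 0.146, 0.158 and 0.17 in the *Rbfox2*-/- mice, without overlap and with a log2 difference of -0.30. *Gnb5* to *Gnat1* ran from 0.0504 to 0.0643 in controls and from 0.0444 to 0.0479 in *Rbfox2*-/- mice, also without overlap (-0.33). *Slc24a1* to *Cngb1*, a subunit of the channel, ran from 1.46 to 1.65 in controls and from 1.49 to 1.57 in *Rbfox2*-/- mice, with overlap.

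The genes around recovery were examined as lists named by function. None of their genes had an adjusted p under 0.05. Of all genes tested, 50.7% were above 0, 13.3% had an unadjusted p under 0.05 (edgeR quasi-likelihood test) and 7.03% had groups that did not overlap. Of 9 genes of rod activation, all 9 were above 0, 6 with an unadjusted p under 0.05, 4 without overlap between the groups, and the median log2 fold change was 0.12 (0.08 without M901 and M902). *Gngt1*, the gamma subunit of rod transducin, was at 859 CPM in controls and 1010 CPM in *Rbfox2*-/- retinas (0.23, SE 0.045, adjusted p = 0.104). *Gnat1* (0.19), the phosphodiesterase subunits *Pde6g* (0.19) and *Pde6b* (0.13), *Cngb1* (0.12) and *Gnb1* (0.12) were the other 5, with adjusted p of 0.219 to 0.372.

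Of 9 genes of cone activation, 8 were above 0, 4 of them with an unadjusted p under 0.05, and 2 had groups that did not overlap. The median was 0.13 (0.08 without M901 and M902). *Gngt2*, the gamma subunit of cone transducin, was at 42.4 CPM in controls and 50.8 CPM in *Rbfox2*-/- retinas (0.26, SE 0.038, adjusted p = 0.0568), without overlap between the groups. The short-wave opsin *Opn1sw* was at 0.26 (adjusted p = 0.192), *Pde6c* at 0.23 (0.276 adjusted) and *Cnga3* at 0.14 (0.287 adjusted). The medium-wave opsin *Opn1mw* was the exception at -0.23 (adjusted p = 0.353).

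Of 11 partners in shutoff, such as arrestins and chaperones of the phosphodiesterase and cyclase, 7 were above 0 and 2 had groups that did not overlap. The median was 0.12 (0.07 without M901 and M902). The 5 with an unadjusted p under 0.05 were the rod arrestin *Sag* (0.22, adjusted p = 0.264), the phosphatase *Ppef2* (0.17), the prenyl-binding *Pde6d* (0.15), the chaperone *Aipl1* (0.14) and *Rd3* (0.12), which binds the retinal cyclases.

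The lists of relatives of the recovery genes had medians below or near 0. Of 8 other calcium exchangers, 6 were below 0 (median -0.07), and *Slc24a2*, the exchanger best known from cones and brain, was at 139 CPM in controls and 123 CPM in *Rbfox2*-/- retinas (-0.18, SE 0.040, adjusted p = 0.155) without overlap. No other gene of the 5 lists of relatives had an unadjusted p under 0.05. Other guanylate cyclases had 6 of 7 tested genes below 0 (median -0.07), of which *Gucy1a2* had the lowest p (-0.10, adjusted p = 0.416), with *Gucy1a3* the most abundant (273 CPM in controls, -0.06, adjusted p = 0.554). Neuronal calcium sensors, the family of recoverin, had 8 of 10 below 0 (median -0.06, and -0.11 without M901 and M902). *Kcnip1* had the lowest p (-0.08, adjusted p = 0.563) and *Ncald* was the most abundant (0.02, adjusted p = 0.89). Relatives and partners of *Rgs9* had 3 of 4 below 0 (median -0.03, and -0.02 without M901 and M902), with *Rgs7bp*, which is both the one with the lowest p and the most abundant, at -0.08 (adjusted p = 0.56). The other G protein receptor kinases had 3 of 5 above 0 (median 0.02, and -0.03 without M901 and M902 or without M901 alone), with *Grk6* (-0.06, adjusted p = 0.577) lowest in p and *Adrbk1* (0.02, adjusted p = 0.888) most abundant.

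**Figure D5:**
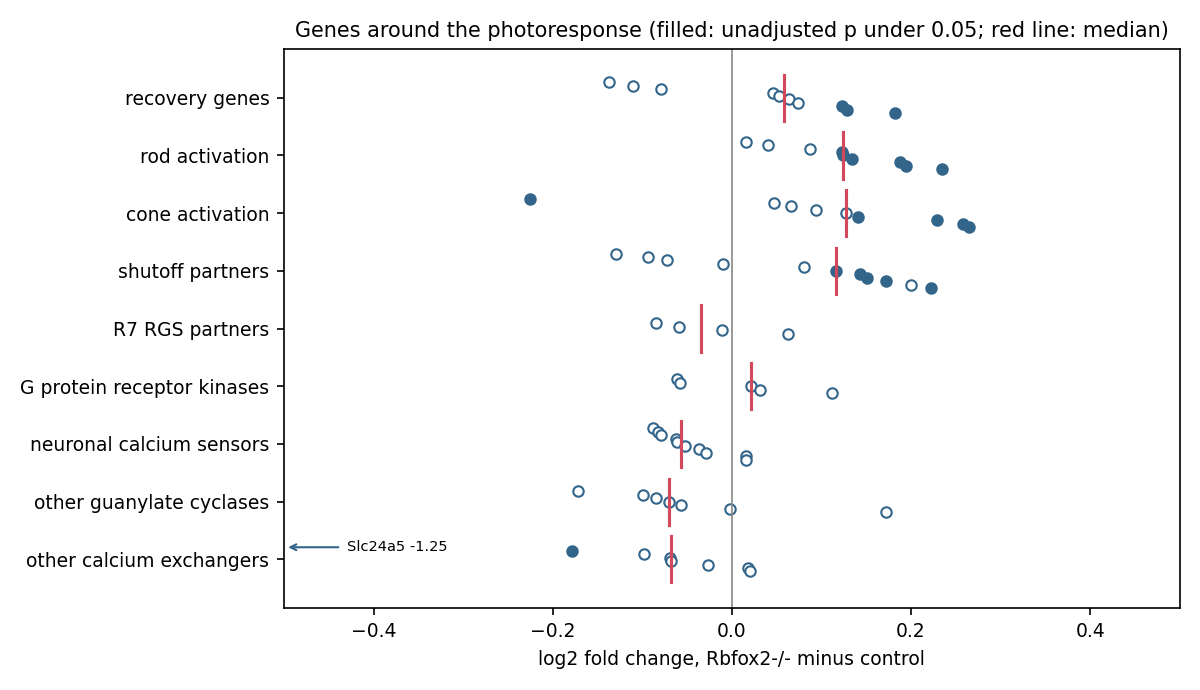
Log2 fold change of each tested gene, *Rbfox2*-/- minus control, in the recovery genes and in 8 lists named by function, with filled points for an unadjusted p under 0.05 and a red line at the list's median. Medians are 0.12 to 0.13 in rod activation, cone activation and shutoff partners, 0.058 in the recovery genes, and between -0.07 and 0.02 in the lists of relatives, and *Slc24a5* at -1.25 is marked by an arrow.

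The labelled tissue was checked on markers of retinal cell types, which were all detected. In whole retina, fewer cells of a type and less RNA per cell cannot be told apart. The 8 rod markers summed to 59540 to 63770 CPM in controls and 61460 to 66990 CPM in *Rbfox2*-/- retinas. Their median log2 fold change was 0.06, and 3 of 8 had an unadjusted p under 0.05, against 13.3% of all genes. The 8 cone markers summed to 978 to 982 CPM in controls and 1051 to 1183 CPM in *Rbfox2*-/- retinas (median 0.17). Medians were 0.08 for markers shared by photoreceptors, -0.12 for bipolar, -0.06 for amacrine, 0.07 for ganglion and -0.04 for Muller glial cells. Markers of the pigment epithelium, which adheres to the photoreceptors, summed to 57.8 to 183 CPM in controls and 48.6 to 137 CPM in *Rbfox2*-/- retinas, those of microglia had a median of -0.11, and those of the lens summed to 0.481 to 2.86 CPM over all mice. Ganglion cell markers summed to 549 CPM in the control M833, against 885 to 929 CPM in the other 3 controls and 706.5 to 948 CPM in the *Rbfox2*-/- mice. No marker was at 0 in every library. The part of these shifts in the differences of the recovery genes was not tested.

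Among the controls, 2 libraries had the recovery genes on 1 side of the mean. M833 had all 10 genes above the control mean and M894 had 0, while *Rbfox2*-/- mice had 5 (M893), 7 (M901), 8 (M902) and 5 (M909). The coefficient of variation over the 4 controls ran from 2.28% (*Rgs9bp*) to 10.2% (*Gucy2f*). Across all 8 libraries, which share any difference in composition, the log2 CPM of *Rcvrn* and *Slc24a1* had the highest correlation among the 45 pairs (r = 0.954), followed by *Guca1a* and *Gnb5* (r = 0.947), and *Gucy2f* and *Gnb5* had the lowest (r = -0.343). The genes outside the 10 whose log2 CPM was most like the mean of the 10 over the 8 libraries were *Tasp1* (r = 0.985), *Prdm8* (0.974), *Rbm18* (0.971), *Cpsf3* (0.963) and *Mtf1* (0.963). These correlations are descriptions over 8 libraries.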

How the data were processed

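Retinal poly(A) RNA of 8 mice was sequenced. According to the methods, the authors aligned reads to mm10 with STAR, kept unique alignments and used HTSeq to count fragments. Both RefSeq and Ensembl annotation are named. The authors deposited raw counts, used for every test here, and FPKM, used only to compare levels between genes. In all, 16 columns of per-sample values (normalized counts and log ratios, each for 8 mice) and the authors' fold changes and p-values were not used. Groups came from the genotype labels.

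Counts were filtered with filterByExpr, which kept 16797 of 17500 genes, TMM-normalized and compared by the quasi-likelihood test of edgeR 4.0.16 (R 4.3.3), with Benjamini-Hochberg adjustment over the genes tested. SE are log2 fold changes divided by the square root of F. Ratios were compared by exact permutation (Python 3.11.15). In a simulation of the comparison where 200 genes differed by a factor of 2, the test recovered 92.5% of them and called 12 others among 16727 genes. The 12 pairs of libraries within groups each differed by more than sampling noise, and nothing states that mice came from separate litters. Each library held at least 160630226 counts.

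The genes and lists were chosen with earlier results of these data known. Named are the 10 genes and *Rbfox2*. Of each list those with an adjusted p under 0.05, then an unadjusted p under 0.05, are named, at most 6 by lowest p. Where there are none, the gene of lowest p and the most abundant one stand for the list. The 5 genes most like the 10 by Pearson correlation are also named. *Slc24a5* and *Gm19531* were added after their values were seen. Alternatives were DESeq2 1.42.0, the edgeR likelihood ratio test, limma-voom (limma 3.58.1), normalization by RLE or upper quartile, testing without the filter or with at least 10 counts everywhere, and leaving out each mouse or M901 and M902. Promoters came from RefSeq (GRCm38.p6). Some items of these data are not reported here.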

Additional observations from a re-analysis of the deposited data

Results flagged for a closer look

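One value stood apart from its group by Dixon's test, which was run on each of the 10 genes in each group (20 groups of 4 mice) and flags about 1 group in 20 by chance. *Gucy2f* in the control M833 was at 462.8 CPM, against 377.5 to 389 CPM in the other 3 controls, a gap of 0.87 of the range, past the critical value for 4 samples. All 10 recovery genes were above the control mean in M833, while ganglion cell markers were lower there, at 549 CPM against 885 to 929 CPM in the other controls. The part of this difference in the value of *Gucy2f* was not tested. Without M833 the log2 fold change of *Gucy2f* was 0.25 in place of 0.18, with an unadjusted p of 0.00192 and an adjusted p of 0.111 (edgeR quasi-likelihood test).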

How the results depend on the processing

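No recovery gene had an adjusted p under 0.05 under any of the 16 alternatives. The number with an unadjusted p under 0.05, 3 as reported, was 5 with DESeq2, 1 with the likelihood ratio test of edgeR, 1 without M901 and M902, and 0 to 4 when single mice were left out. It was 0 without M896, without M898 or without M901. Without M894, without M902, or without M901 and M902, the 1 gene counted was *Gnb5*, which was lower, and none of the 3 reported. *Guca1b* turned to -0.010 without M901 and M902, and *Grk1* to -0.043 without these mice and, over the mice left out singly, ran from -0.012 (without M902) to 0.112, and the cause was not tested. The other 8 genes kept their direction under all alternatives, as did *Rbfox2* (-1.43 to -1.38). The median of the 10 genes was 0.0042 without M901 and M902 (0.058 as reported) and ran from 0.03 to 0.09 when single mice were left out. Genes called in the whole table, 11 as reported, numbered 460 with DESeq2, 164 with the likelihood ratio test, 1 without M901 and M902 and 5 to 35 when single mice were left out, and genes at p under 0.01 (651) numbered 1073 with DESeq2, 253 without M901 and M902 and 354 to 995 without single mice. Ratios without overlap numbered 12 to 18 when mice were left out, and by construction they could not fall below 12. The log2 ratio of *Rgs9* to *Rgs9bp* stayed between -0.20 and -0.14 when mice were left out. Both alternatives were chosen after seeing the data. No paired analysis was possible because the labels give each mouse its own number. Every library pair within a group differed by more than counting error.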
